A study of Mus musculus with 27 samples.

Results

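Interferons are secreted proteins that warn cells of infection, and the genes they switch on were followed here in 3 tissues of mice lacking *Mlx*. The genes described were named by a fixed list of 46 symbols, each known to be induced by type I interferons, by the type II interferon *Ifng* or by both. Of these, 44 were among the 36333 genes of the table, and *Mx1* and *Mx2* were not analysed here. By their known roles, the 44 comprised 5 transcription factors, 9 guanylate-binding proteins, 6 immunity-related GTPases, 14 antiviral effectors, 4 nucleic acid sensors and 6 genes of ubiquitin, ADP-ribosylation and nuclear body proteins. All samples came from male *Mlx*KO mice from a cross between the line Gt(ROSA)26Sortm1(cre/ERT2)Tyj/J on a B6.129 background and *Mlx* Flox/Flox, in which a tamoxifen-activated Cre recombinase driven body-wide from the ROSA26 locus deletes the floxed part of *Mlx*. Tamoxifen (75 mg/kg, intraperitoneal, in corn oil) was injected on 5 days, starting at weaning, in the mice of both ages. *Mlx* encodes the DNA-binding partner of the nutrient-sensing transcription factors ChREBP and MondoA. Liver, omental adipose tissue and skeletal muscle were taken from the same 4 mice at 5 months of age and, at 20 months, from 5 mice for each tissue whose numbers were not shared between tissues. Both ages carried the deletion and the tamoxifen treatment, so the comparisons are of age within *Mlx*KO mice. WT samples were not analysed here.

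Type I interferons such as *Ifnb1* bind the receptor made of *Ifnar1* and *Ifnar2*, and the kinases *Jak1* and *Tyk2* then activate transcription factors, among them *Stat2*, which joins *Irf9* on the interferon-stimulated response element of target promoters. *Ifng* binds *Ifngr1* and *Ifngr2*, acts through *Jak1* and *Jak2*, and works through gamma-activated sites in target promoters. The products of the induced genes block viral replication, coat and break the vacuoles in which microbes live, sense foreign nucleic acid and prime antigen presentation. Hepatocytes, macrophages, adipocytes and muscle fibres can all respond to interferons, and several of the genes have a basal level in healthy tissue.

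Promoters were examined first, because they carry the elements through which these genes are known to be read. RefSeq promoter windows (250 bases before to 50 bases after the start, GRCm38.p6) were matched for 31 of the 44 genes. The core of the response element was searched as GAAA and GAAA with any 2 bases (NN) between them and the core of the gamma-activated site as TTCNNNGAA, on both strands and allowing matches to overlap. The response element core was found in 18 of the 31 (58.1%), against 3.99% of the 27025 genes with a window. The gamma-activated site core was found in 11 (35.5%), against 9.55% of all genes, and 7 held both. The windows below were chosen to show the GTPase genes, in which both cores often occur, beside antiviral genes and *Irf1*. Capitals mark the matches on either strand, and each sequence is written 5′ to 3′ on the strand of the gene.
Igtp, chr11:58199491-58199551, plus strand, bases -65 to -5 from the start: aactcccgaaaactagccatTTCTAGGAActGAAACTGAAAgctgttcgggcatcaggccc
Irgm2, chr11:58214882-58214942, plus strand, bases -95 to -35 from the start: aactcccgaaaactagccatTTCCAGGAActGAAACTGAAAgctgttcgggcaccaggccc
Tgtp1, chr11:48992294-48992354, minus strand, bases -108 to -48 from the start: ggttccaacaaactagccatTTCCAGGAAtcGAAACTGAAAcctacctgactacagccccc
Gbp2, chr3:142620584-142620633, plus strand, bases -79 to -30 from the start: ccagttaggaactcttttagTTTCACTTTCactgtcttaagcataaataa
Gbp7, chr3:142530210-142530312, plus strand, bases -126 to -24 from the start: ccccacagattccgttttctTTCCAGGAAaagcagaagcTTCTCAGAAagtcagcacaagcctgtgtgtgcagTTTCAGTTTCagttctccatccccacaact
Isg15, chr4:156200855-156200916, minus strand, bases -98 to -37 from the start: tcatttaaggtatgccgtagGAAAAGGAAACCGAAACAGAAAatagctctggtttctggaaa
Ifit1, chr19:34640765-34640833, plus strand, bases -124 to -56 from the start: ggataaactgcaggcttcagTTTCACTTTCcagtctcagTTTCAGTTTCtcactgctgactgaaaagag
Bst2, chr8:71537567-71537628, minus strand, bases -156 to -95 from the start: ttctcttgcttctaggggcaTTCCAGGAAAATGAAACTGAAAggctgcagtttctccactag
Irf1, chr11:53769904-53769952, plus strand, bases -110 to -62 from the start: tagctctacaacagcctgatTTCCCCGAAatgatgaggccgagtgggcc
The GTPase genes *Igtp*, *Irgm2*, *Tgtp1* and *Gbp7* each had both cores within the stretch shown, and *Gbp2* had the response element core. *Isg15* had 3 overlapping matches to the response element core and *Ifit1* had 2 separate ones. In *Bst2* a gamma-activated site core overlapped the first of 2 overlapping response element cores. *Irf1* had only the gamma-activated site core in its window. A match says that these letters are present and does not show that a factor binds there.

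The samples held 14384695 to 25673919 reads on genes. The values are reads per gene scaled by the authors with a factor for each sample, and are called scaled values here. Differences are given as log2 of the scaled value + 1, a scale on which the change of genes with low values is understated. The markers of hepatocytes, adipocytes and muscle fibres were highest in the tissue each sample is labelled as, but all 9 adipose tissue samples also held muscle-fibre transcripts (summed scaled value of 4 genes 93.6 to 760.2, against 110419 to 141325 in muscle). The liver of mouse 74 at 20 months stood apart from the other livers. Its hepatocyte marker sum was 39318, against 74733 to 90691 in the other livers at 20 months and 95727 to 153563 at 5 months. Ratios of liver means are given with and without it for the genes that depended on it most. Others also moved without it, the ratio of *Irf1* from 2.58 to 1.92 and that of *Ifi47* from 5.06 to 3.64, while that of *Irf7* was 6.60 with it and 6.67 without. *Mlx* itself, counted over the whole gene, was 24.2 to 32.4 at 5 months and 18.8 to 27.8 at 20 months in liver, and as both ages carry the deletion, the value checks no label. In each list of values the samples stand in the order of the mouse numbers. At 5 months the liver codes are X5L4299, X5L5001, X5L5238 and X5L5239, and the same mice have F in adipose tissue and S in muscle in place of the last L. At 20 months the mice are 16, 17, 18, 19 and 74 for liver, 36 to 40 for adipose tissue and 56 to 60 for muscle.

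Most of these genes rose with age in liver, somewhat over 1 of every 2 did in adipose tissue, and few did in muscle. In liver 30 of 44 were higher at 20 months, in adipose tissue 24 of 43 and in muscle 4 of 38, and 0 were lower in any tissue (limma across all genes, Benjamini-Hochberg adjusted p under 0.05). At an unadjusted p under 0.05, 40 were higher in liver, 33 in adipose tissue and 12 in muscle and 0 were lower, and by edgeR and by DESeq2, both on recovered reads, 0 were lower as well. At the adjusted p threshold, 10% of all genes tested were higher and 9.79% lower in liver, 9.75% and 9.35% in adipose tissue and 9.13% and 10.1% in muscle, which is 19.8%, 19.1% and 19.3% in either direction. The median log2 change of the members was 1.46 in liver, where that of all genes was 0.0011, 0.63 in adipose tissue, against 0.0072, and 0.15 in muscle, against 0.017. The change was positive in liver for 43 of 44 members, the exception being *Dtx3l*, in adipose tissue for 43 of 43 and in muscle for 25 of 38. All 20-month samples lay above all 5-month samples for 17 members in liver, 26 in adipose tissue and 4 in muscle, against 8.46%, 8.3% and 8.63% of all genes tested in these tissues. In bulk tissue, fewer cells of a type and less RNA per cell cannot be told apart, and the same holds for more cells and more RNA.

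A filter on low values (at least 1 in at least 4 samples) left out *Gbp10* in adipose tissue and *Gbp8*, *Isg15*, *Oas1a*, *Ifi44*, *Zbp1* and *Ubd* in muscle. *Ubd* in liver and *Ifi44* in adipose tissue were under 1 in every 5-month sample and passed the filter through the 20-month samples alone, so they had to differ to be tested. *Ubd* is counted among the 30 genes called in liver and *Ifi44* among the 24 called in adipose tissue. *Ubd* is also among the 17 members whose ages did not overlap in liver. Both are also among the 19 genes called in liver and in adipose tissue. The numbers called depended on single mice. In liver the count fell from 30 to 19 without mouse X5L4299, 10 without mouse X5L5001, 19 without mouse 17 and 12 without mouse 18, and it was 42 without mouse 16 and 28 without mouse 74. In adipose tissue it fell from 24 to 10 without mouse X5F4299, 12 without X5F5001, 15 without 38, 11 without 39 and 15 without 40. In muscle it fell from 4 to 1 without mouse X5S4299, X5S5001, 57 or 59. The members called in every one of the 9 fits that left out a mouse were *Irf7*, *Gbp2*, *Gbp3*, *Gbp6*, *Igtp*, *Oasl2*, *Bst2*, *Zbp1*, *Xaf1* and *Rtp4* in liver, *Irf8*, *Gbp3*, *Gbp5*, *Gbp6*, *Gbp7*, *Iigp1*, *Ifit3*, *Bst2*, *Ifi47* and *Ubd* in adipose tissue, and *Dtx3l* in muscle. Each of the other members called lost its call without at least 1 of the mice.

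**Figure D1:**
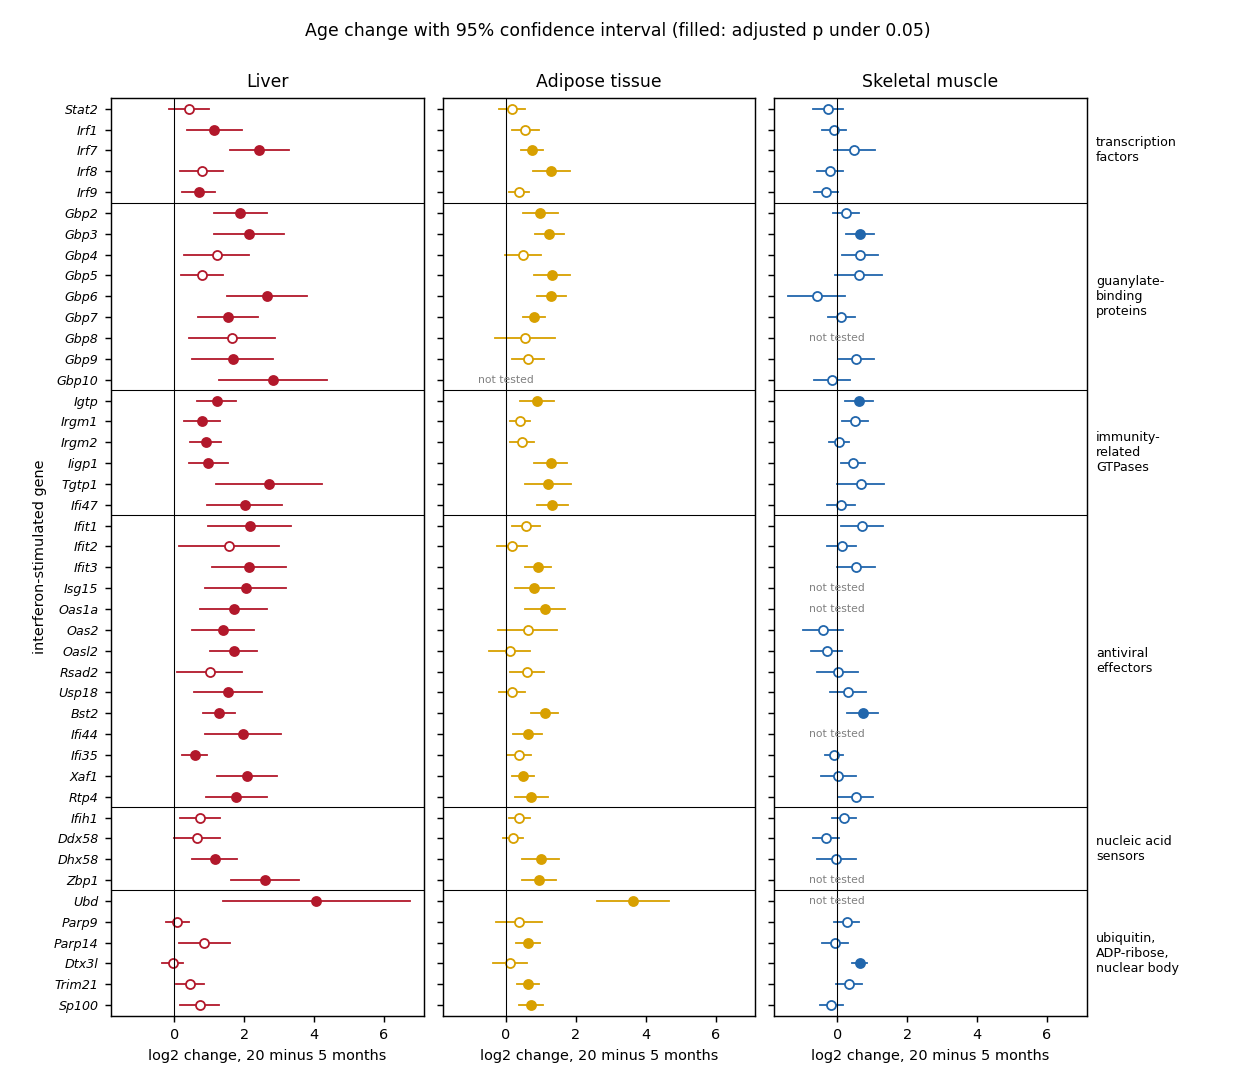
Log2 change from 5 to 20 months of each gene (points) with its 95% confidence interval (lines) in liver, adipose tissue and skeletal muscle, genes grouped by role, filled points past the adjusted p threshold. Filled points stand to the right of 0 for 30 genes in liver, 24 in adipose tissue and 4 in muscle.

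Of the 30 genes higher in liver, 19 were also higher in adipose tissue, which is 63.3% of the liver genes and 79.2% of the 24 adipose genes. How often all genes higher in liver were also higher in adipose tissue was not counted, so these percentages are a description. *Bst2*, *Gbp3* and *Igtp* were higher in all 3 tissues. The 4 of 38 called in muscle are near the 9.13% of all genes higher there. *Gbp5*, *Irf8*, *Parp14*, *Sp100* and *Trim21* passed the threshold in adipose tissue without passing it in liver, and *Dtx3l* passed it in muscle without passing it elsewhere. *Ddx58*, *Gbp4*, *Gbp8*, *Ifih1*, *Ifit2*, *Parp9*, *Rsad2* and *Stat2* passed it in no tissue.

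**Figure D2:**
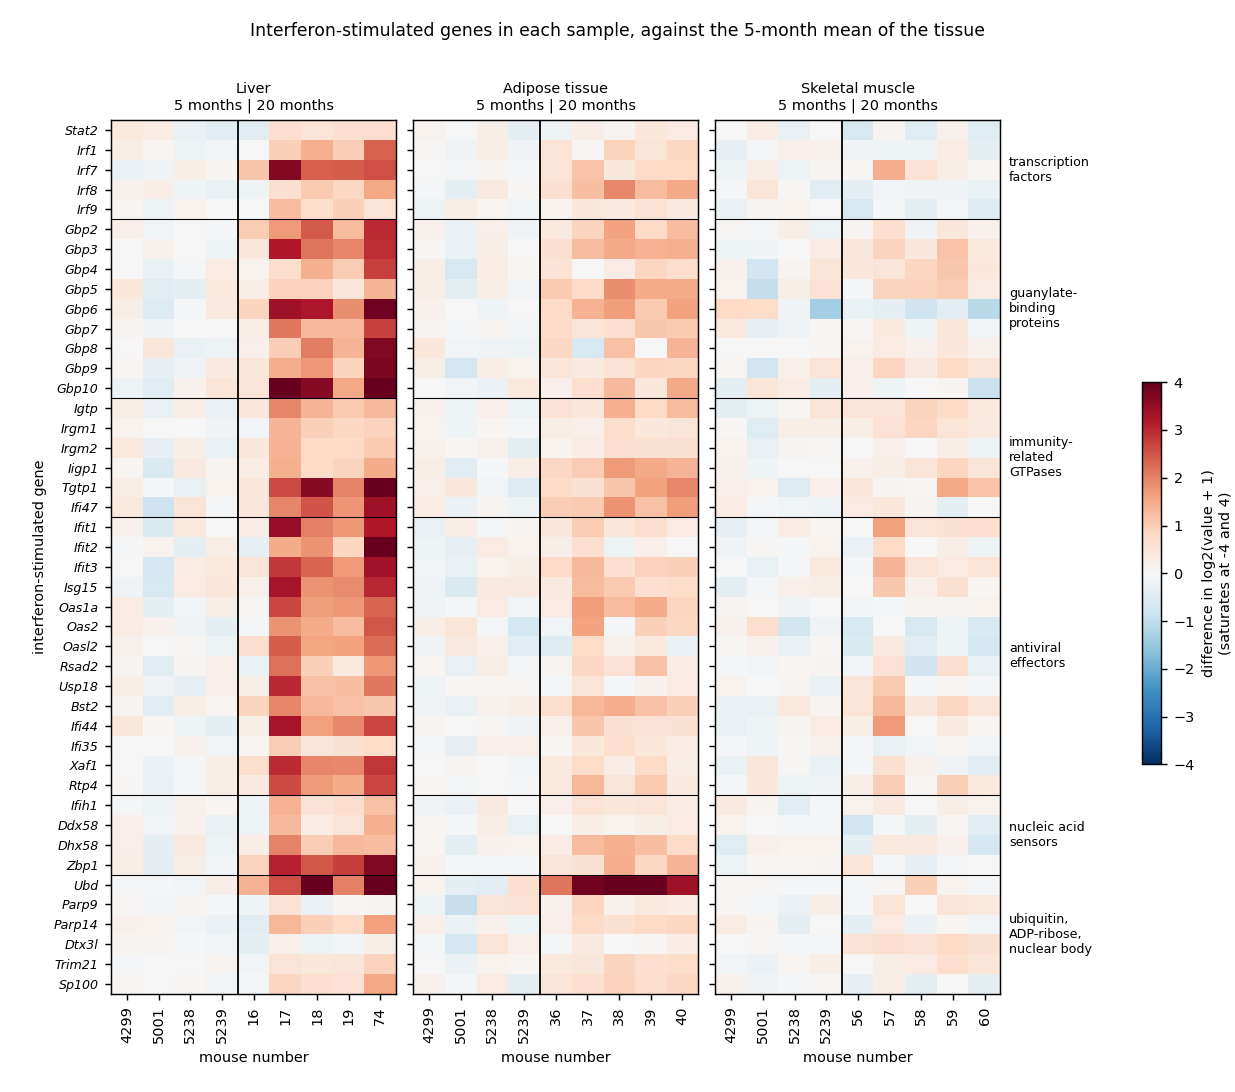
Difference of log2(scaled value + 1) in each sample (columns, by mouse number) from the 5-month mean of the same tissue, for each of the 44 genes (rows, grouped by role), red above and blue below that mean. The livers of mice 17 and 74 are the reddest columns, and the liver of mouse 16 is close to the 5-month samples.

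Among the transcription factors, 3 of 5 rose in liver, 2 in adipose tissue and 0 in muscle (median log2 changes 0.78, 0.56 and -0.20). In muscle 0 of 5 passed an unadjusted p under 0.05 by limma, and 0 of 5 were called by edgeR or DESeq2. In adipose tissue edgeR called 3 and DESeq2 4, and in liver 3 and 4. *Irf7*, the factor that amplifies the type I interferon response, was 12.03, 12.9, 16.9 and 15.6 in liver at 5 months and 31.8, 193, 78.2, 80.99 and 90.8 at 20 months. All 5 older livers exceeded all 4 younger ones, and the highest was mouse 17 and the lowest mouse 16. The log2 change was 2.43 (adjusted p = 0.00775, standard error 0.38), and the call held in all 9 fits that left out a mouse. In adipose tissue *Irf7* was 6.44, 6.02, 6.87 and 5.94 at 5 months and 9.73, 15.2, 9.07, 11.5 and 11.7 at 20 months, again without overlap of the ages, a change of 0.75 (adjusted p = 0.0160, standard error 0.15, call lost without mouse X5F4299). In muscle it was 2.23, 3.39, 2.19 and 2.93 at 5 months and 2.804, 9.04, 4.48, 3.38 and 2.85 at 20 months, and the ages overlapped (change 0.49, adjusted p = 0.198, standard error 0.26). Mouse 57 stood above the other older muscles.

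*Irf8*, a factor of macrophages, dendritic cells and B cells, was 17.5, 13.8, 23.9 and 18.9 in adipose tissue at 5 months and 28.97, 43.02, 71.02, 45.1 and 53.7 at 20 months. The ages did not overlap, and the change was 1.305 (adjusted p = 0.0138, standard error 0.24), and the call held in all 9 fits that left out a mouse. In liver it was 9.16, 9.89, 6.92 and 6.398 and 7.02, 13.1, 17.7, 14.8 and 25.01, with mouse 16 inside the 5-month range, and the change of 0.78 (adjusted p = 0.0731, standard error 0.28) did not pass the threshold. Muscle held the lowest values at 20 months, 4.499, 5.52, 5.42, 5.37 and 4.92, after 5.69, 8.79, 6.34 and 4.18 at 5 months (change -0.20, adjusted p = 0.403, standard error 0.17).

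*Irf1*, a factor induced by *Ifng* that acts on many GTPase genes, was 26.3, 22.99, 18.8 and 19.99 in liver at 5 months and 22.1, 42.8, 60.1, 43.96 and 115 at 20 months. Mouse 16 lay inside the 5-month range and mouse 74 was highest. The change of 1.14 (adjusted p = 0.0456, standard error 0.36) passed the threshold, but the call was lost without mouse X5L4299, X5L5001, X5L5238, X5L5239, 17, 18 or 19. In adipose tissue *Irf1* changed by 0.56 (adjusted p = 0.0507, standard error 0.17) and in muscle by -0.10 (adjusted p = 0.667, standard error 0.16). *Irf9*, the DNA-binding partner of *Stat2*, rose in liver from a mean of 29.4 ± 3.18 (n = 4, SD) at 5 months to 50.1 ± 15.6 (n = 5, SD), with a change of 0.70, adjusted p = 0.0422, standard error 0.21, and the call was lost without mouse X5L4299, X5L5001, X5L5238, X5L5239, 17, 18 or 19. In adipose tissue the change of *Irf9* was 0.38 (adjusted p = 0.0562, standard error 0.12), just short of the threshold, and in muscle it was -0.33 (adjusted p = 0.154, standard error 0.16). *Stat2* was 55.2, 51.9, 34.4 and 30.2 in liver at 5 months and 29.9, 67.3, 60.9, 65.03 and 66.4 at 20 months. The young livers already covered much of that range, and the change of 0.41 (adjusted p = 0.264, standard error 0.26) did not pass, nor did those in adipose tissue (0.18, adjusted p = 0.410, standard error 0.16) or muscle (-0.27, adjusted p = 0.333, standard error 0.19).

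The guanylate-binding proteins, large GTPases that assemble on the membranes of pathogen vacuoles, are coded by *Gbp2*, *Gbp3*, *Gbp5* and *Gbp7* on chromosome 3 and by *Gbp4*, *Gbp6*, *Gbp8*, *Gbp9* and *Gbp10* on chromosome 5. In liver 6 of 9 rose (median log2 change 1.66), in adipose tissue 5 of 8 (0.90) and in muscle 1 of 8 (0.39). *Gbp6* was 5.85, 3.06, 4.63 and 6.48 in liver at 5 months and 9.87, 60.8, 53.9, 20.05 and 85.9 at 20 months. Each older liver exceeded each younger one, and the mean was 9.21 times that at 5 months, or 7.22 times without mouse 74. The log2 change was 2.65 (adjusted p = 0.0116, standard error 0.53), and the call held in all 9 fits that left out a mouse. In adipose tissue *Gbp6* rose from 10.5, 9.38, 8.13 and 9.197 to 16.7, 25.97, 31.4, 20.2 and 30.02 (change 1.297, adjusted p = 0.00917, standard error 0.18).

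Muscle was the exception for *Gbp6*, with 100.04, 94.4, 50.9 and 21.3 at 5 months and 47.1, 44.4, 32.5, 41.01 and 26.4 at 20 months. The spread at 5 months covered all older samples and the change of -0.59 (adjusted p = 0.272, standard error 0.37) did not pass. *Gbp10*, its neighbour, was 0.955, 0.655, 1.57 and 2.16 in liver at 5 months and 2.29, 34.9, 27.3, 5.62 and 47.3 at 20 months, a change of 2.83 (adjusted p = 0.0218, standard error 0.70) without overlap of the ages, and the call was lost without mouse X5L4299, X5L5001 or 18. In muscle *Gbp10* was 49.8, 89.97, 79.1 and 48.9 at 5 months and 73.9, 55.5, 64.9, 70.3 and 34.8 at 20 months, with overlapping ranges. *Gbp6* and *Gbp10* (chromosome 5, 105270702 to 105295871 and 105215699 to 105239533, GRCm38.p6) have 90.2% and 82.5% of their 50-base words in common with other genes, mostly with *Gm43302*, so reads could have been divided among them. Their sum rose 10.97-fold in liver (6.34 ± 2.04, SD, n = 4, to 69.5 ± 50.2, SD, n = 5; 8.46-fold without mouse 74) and 2.73-fold in adipose tissue, without overlap of the ages, and the ratio was 0.735 in muscle, where the ages overlapped.

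*Gbp3* was the guanylate-binding protein that passed the threshold in all 3 tissues. It was 2.35, 2.76, 2.35 and 1.999 in liver at 5 months and 3.46, 29.6, 13.7, 12.1 and 24.8 at 20 months (change 2.13, adjusted p = 0.0136, standard error 0.45). In muscle it was 2.31, 2.34, 2.74 and 3.48 and 4.04, 5.85, 3.98, 7.06 and 3.85 (change 0.66, adjusted p = 0.0302, standard error 0.18, and the call was lost without mouse X5S4299, X5S5001, 57 or 59). The older samples lay above the younger ones in both tissues, by far less in muscle. *Gbp5*, which promotes inflammasome assembly, rose in adipose tissue from a mean of 2.36 ± 0.633 (n = 4, SD) at 5 months to 7.61 ± 2.48 (n = 5, SD), with a change of 1.33, adjusted p = 0.0123, standard error 0.23, and in liver its change of 0.79 (adjusted p = 0.0604, standard error 0.27) did not pass. Without mouse 74, the ratio of the liver means fell from 3.66 to 2.24 for *Gbp4*, from 7.02 to 3.42 for *Gbp8* and from 5.42 to 2.63 for *Gbp9*. *Gbp2* and *Gbp7* rose in liver (changes 1.89 and 1.54) and in adipose tissue (0.99 and 0.81).

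The immunity-related GTPases mark and disrupt vacuoles in mouse cells, and 6 of 6 rose in liver, 4 in adipose tissue and 1 in muscle (median log2 changes 1.09, 1.05 and 0.48). *Tgtp1* was 3.31, 2.4004, 1.92 and 3.04 in liver at 5 months and 3.82, 21.8, 44.4, 13.4 and 103 at 20 months. Mouse 16 was barely above the younger livers and mouse 74 far above the others. The change was 2.71 (adjusted p = 0.0233, standard error 0.69), and the call was lost without mouse X5L5001, X5L5238 or 18. The mean was 13.98 times that at 5 months, and 7.81 times without mouse 74. *Tgtp1* (chromosome 11, 48985329 to 48992246) shares 81.2% of its 50-base words with other genes, most of them with *Tgtp2*, and the sum of both rose 8.001-fold in liver without overlap of the ages, and 4.92-fold without mouse 74. In adipose tissue *Tgtp1* was 3.25, 3.99, 2.42 and 1.57 and then 5.39, 4.63, 6.8997, 10.2 and 13.1 (change 1.204, adjusted p = 0.0292, standard error 0.30, call lost without mouse X5F4299, 38, 39 or 40).

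*Iigp1*, the best known effector of the family against intracellular parasites, was the member with the highest scaled value in young liver, 169, 106, 205 and 172, and it was 195, 425, 268, 295 and 445 at 20 months. The ages overlapped through mouse 16, and the change was 0.97 (adjusted p = 0.0261, standard error 0.26, call lost without mouse X5L4299, X5L5001, 17 or 18). In adipose tissue it started far lower, at 8.58, 4.95, 6.901 and 8.85, and was 13.6, 15.4, 25.4, 22.2 and 19.8 at 20 months. There the ages did not overlap and the change was 1.28 (adjusted p = 0.0114, standard error 0.21). *Ifi47* rose in liver (change 2.02, adjusted p = 0.0199, standard error 0.49, call lost without mouse X5L5001 or 18) and in adipose tissue, from a mean of 4.95 ± 1.097 (n = 4, SD) at 5 months to 14.2 ± 3.96 (n = 5, SD), with a change of 1.33, adjusted p = 0.00948, standard error 0.20. *Igtp* was the family member that passed the threshold in muscle, with 3.92, 4.43, 5.71 and 7.73 at 5 months and 7.95, 7.98, 10.7, 9.78 and 7.198 at 20 months. The lowest older muscle was below the highest younger one by less than the spread of either age, the change was 0.62 (adjusted p = 0.0349, standard error 0.18), and the call was lost without mouse X5S4299, X5S5001, 56, 57, 58, 59 or 60. The regulators *Irgm1* and *Irgm2*, which keep the effector GTPases from attacking the cell's own membranes, rose in liver by 0.80 and 0.90 and did not pass in adipose tissue (0.41 and 0.46).

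**Figure D3:**
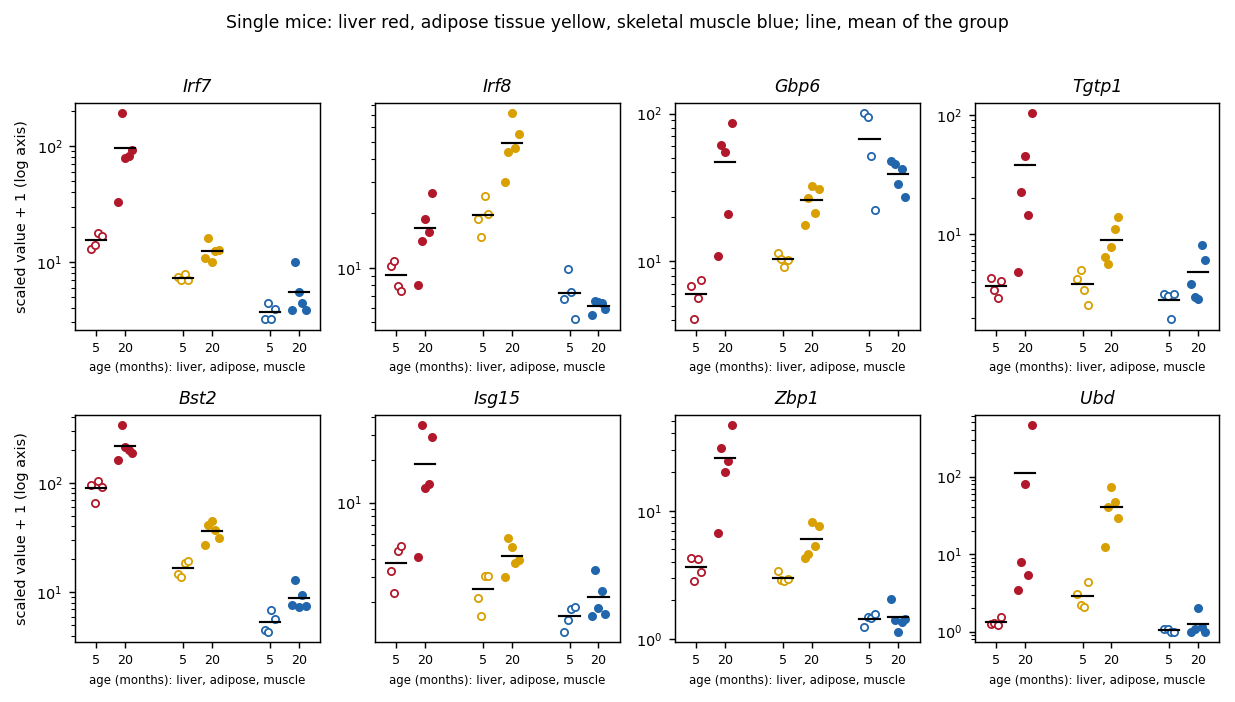
Scaled value + 1 (log axis) of 8 genes in single mice at 5 months (open) and 20 months (filled), in liver (red), adipose tissue (yellow) and skeletal muscle (blue), with the mean of each group as a line. *Irf7* and *Zbp1* separate most in liver, *Irf8* in adipose tissue, and *Gbp6* is highest in young muscle.

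Of the antiviral effectors, 12 of 14 rose in liver and 7 of 14 in adipose tissue, and in muscle 1 of 11 did (median log2 changes 1.70, 0.61 and 0.13). *Bst2* (tetherin), which holds budding virus particles at the cell surface, was 94.3, 64.2, 103 and 90.5 in liver at 5 months and 160.03, 335, 214, 198 and 185 at 20 months. Here even mouse 16 lay above all young livers, and the change was 1.28 (adjusted p = 0.00775, standard error 0.21). In adipose tissue it was 13.8, 12.7, 17.6 and 18.3 and 25.9, 39.9, 43.7, 35.8 and 30.6 (change 1.11, adjusted p = 0.00958, standard error 0.17). In muscle it was 3.53, 3.39, 5.95 and 4.74 and 6.72, 11.9, 6.29, 8.45 and 6.49 (change 0.72, adjusted p = 0.0291, standard error 0.20, and the call was lost without mouse X5S4299, X5S5001, 57 or 59). The ages did not overlap in any of the 3 tissues.

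*Isg15*, a ubiquitin-like protein attached to other proteins during infection, was 2.29, 1.31, 3.56 and 3.92 in liver at 5 months and 3.15, 34.3, 11.6, 12.5 and 28.02 at 20 months. Mouse 16 stayed inside the 5-month range and the other 4 exceeded it. The change was 2.04 (adjusted p = 0.0252, standard error 0.53), and the call was lost without mouse X5L4299, X5L5001, 17 or 18. *Usp18*, the protease that removes *Isg15* and restrains the receptor, rose in liver by 1.54 (adjusted p = 0.0354, standard error 0.45), and the call was lost without mouse X5L4299, X5L5001, X5L5238, X5L5239, 18, 19 or 74. Its adipose tissue change was 0.17 (adjusted p = 0.453, standard error 0.16), which did not pass.

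*Ifit1*, which binds viral RNA that lacks the host cap structure, was 3.95, 2.04, 4.78 and 3.44 in liver at 5 months and 4.48, 48.8, 17.02, 13.9 and 39.997 at 20 months, a change of 2.16 (adjusted p = 0.0223, standard error 0.54). Mouse 16 again lay among the young livers, and the call was lost without mouse X5L5001 or 18. *Ifit3* rose in liver from a mean of 4.84 ± 1.68 (n = 4, SD) at 5 months to 29.4 ± 19.4 (n = 5, SD), with a change of 2.14, adjusted p = 0.0159, standard error 0.48, call lost without mouse X5L5001, and in adipose tissue from a mean of 5.34 ± 1.04 (n = 4, SD) at 5 months to 11.03 ± 2.09 (n = 5, SD), with a change of 0.92, adjusted p = 0.0124, standard error 0.16. *Ifit3* shares 51.2% of its 50-base words with other genes, all with *Ifit3b*, and their sum was 5.98-fold higher in liver, or 4.62-fold without mouse 74. *Ifit2* changed by 1.56 (adjusted p = 0.106, standard error 0.65) in liver, which did not pass. Its mean was 6.15-fold higher at 20 months with mouse 74 and 2.60-fold without it.

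The oligoadenylate synthetase genes, which activate RNA degradation on double-stranded RNA, and the related *Oasl2* differed between tissues. *Oasl2* was 3.37, 2.84, 3.07 and 2.399 in liver at 5 months and 5.04, 19.99, 10.7, 10.8 and 17.5 at 20 months. The ages did not overlap and the change was 1.698 (adjusted p = 0.00911, standard error 0.31). In adipose tissue it was 10.4, 14.9, 13.4 and 8.24 and 7.66, 19.9, 13.1, 15.2 and 9.44, a change of 0.11 (adjusted p = 0.778, standard error 0.26). In young mice the adipose values were therefore above the liver values, and at 20 months the ranges overlapped. *Oas1a* rose in liver (change 1.69, adjusted p = 0.0246, standard error 0.44, call lost without mouse X5L5001, X5L5238, 17 or 18) and in adipose tissue (change 1.12, adjusted p = 0.0263, standard error 0.26, call lost without mouse X5F4299, X5F5001, 37, 38 or 39), but 57.6% of its 50-base words occur in other genes, all in *Oas1g*. *Xaf1*, a pro-apoptotic zinc finger protein, was 1.34, 0.946, 1.21 and 1.76 in liver at 5 months and 2.697, 17.2, 7.795, 7.61 and 15.8 at 20 months, without overlap (change 2.08, adjusted p = 0.0107, standard error 0.40). *Rtp4*, *Ifi44*, *Oas2* and *Ifi35* also rose in liver, by 1.77, 1.96, 1.39 and 0.58. *Rsad2* (viperin), which makes a chain-terminating nucleotide, was 11.2, 7.49, 11.1 and 12.2 in young liver and 8.498, 51.2, 21.1, 13.9 and 36.4 in older liver, and the change of 1.01 (adjusted p = 0.107, standard error 0.42) did not pass.

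Among the sensors, *Zbp1*, which recognises Z-form nucleic acid and can start necroptosis, was 3.25, 1.82, 3.21 and 2.32 in liver at 5 months and 5.699, 29.6, 19.04, 23.6 and 45.4 at 20 months. All older livers exceeded all younger ones and the change was 2.59 (adjusted p = 0.00866, standard error 0.44). In adipose tissue *Zbp1* rose less, from 2.36, 1.88, 1.86 and 1.92 to 3.27, 3.58, 7.14, 4.34 and 6.66 (change 0.95, adjusted p = 0.0238, standard error 0.21, call lost without mouse X5F4299, X5F5001 or 39), and in muscle it stayed under 1 except in mouse 56. *Dhx58*, a regulator of the RNA helicases, rose in liver by 1.15 (adjusted p = 0.0230, standard error 0.29, call lost without mouse X5L5001, X5L5239, 18 or 19) and in adipose tissue by 0.997 (adjusted p = 0.0274, standard error 0.24, call lost without mouse X5F4299, X5F5001, 37, 38 or 39). The helicases *Ifih1* (MDA5) and *Ddx58* (RIG-I), which detect viral RNA, changed in liver by 0.73 (adjusted p = 0.0704, standard error 0.26) and 0.66 (adjusted p = 0.136, standard error 0.30), and neither passed in any tissue.

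*Ubd* (FAT10), a ubiquitin-like protein induced by *Ifng* and *Tnf*, was 2.04, 1.18, 1.06 and 3.35 in adipose tissue at 5 months and 11.2, 39.3, 72.6, 46.5 and 28.1 at 20 months. The ages were far apart and the change was 3.64 (adjusted p = 0.00677, standard error 0.46). In liver it was 0.255, 0.291, 0.214 and 0.560 at 5 months and 2.44, 6.86, 78.3, 4.32 and 460.2 at 20 months, and the older livers differed among themselves by more than 100-fold. The change was 4.06 (adjusted p = 0.0395, standard error 1.22), and the call was lost without mouse X5L4299, X5L5001, X5L5238, X5L5239, 17 or 18. As every young liver was under 1, *Ubd* passed the filter through the older livers alone and had to differ to be tested. Its adjusted p in liver is therefore no support for a rise. Mouse 74 carried most of the mean, which was 334.9-fold above that of the young livers with it and 69.7-fold without it, and the 5-month values rested on 3 to 7 reads. In muscle *Ubd* reached 1.01 in mouse 58 and was at most 0.147 in the other 8 samples.

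The other genes of that group did not pass the threshold in liver by limma. *Parp14* and *Sp100* rose in adipose tissue by 0.64 (adjusted p = 0.0281, standard error 0.16, call lost without mouse X5F4299, X5F5001, 37, 38, 39 or 40) and 0.72 (adjusted p = 0.0213, standard error 0.16, call lost without mouse X5F4299, X5F5001 or 39), and *Trim21*, the cytosolic antibody receptor, by 0.62 (adjusted p = 0.0229, standard error 0.14, call lost without mouse X5F4299, X5F5001, 39 or 40). In liver their changes of 0.85, 0.72 and 0.45 did not pass. *Dtx3l*, a ubiquitin ligase that works with *Parp9*, was 7.76, 7.98, 7.36 and 7.39 in muscle at 5 months and 11.7, 12.5, 11.9, 13.9 and 12.2 at 20 months. The groups were narrow and did not overlap, and the change was 0.64 (adjusted p = 0.00332, standard error 0.10), and the call held in all 9 fits that left out a mouse. In liver *Dtx3l* changed by -0.05 (adjusted p = 0.807, standard error 0.14) and its partner *Parp9* by 0.08 (adjusted p = 0.743, standard error 0.15). The annotated exons of *Dtx3l* and *Parp9* overlap on opposite strands, and the strand setting of the counting is not given in the sources used here.

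The older mice differed from each other. In liver, mouse 16 had the lowest value of the 5 for 43 of 44 genes, the exception being *Parp9*, and exceeded all young livers for 17 genes. Mice 17 and 74 exceeded all young livers for 44 of 44, and mice 18 and 19 for 42. The median difference from the 5-month mean over the 44 genes was 0.25 in mouse 16, 1.87 in mouse 17, 1.41 in mouse 18, 1.19 in mouse 19 and 2.34 in mouse 74, on the log2 scale. Without mouse 16, the mean of *Irf7* was 7.70-fold higher at 20 months, against 6.60-fold with it, and the value of mouse 16 was 2.21-fold the young mean.

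The highest liver was not the same for each role. Mouse 17 was highest for 10 of 14 antiviral effectors and 4 of 15 GTPases, and mouse 74 for 4 of 14 antiviral effectors and 11 of 15 GTPases, counting guanylate-binding proteins and immunity-related GTPases together. Among older adipose tissues, mouse 37 was highest for 10 of 14 antiviral effectors and 0 of 14 GTPases, and mouse 38 for 2 and 9. In older muscle, mouse 57 was highest for 9 of 11 antiviral effectors and 3 of 14 GTPases, and mouse 59 for 2 and 7. These genes are not independent of each other and the split was noticed in the data, so the counts are given as a description.

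**Figure D4:**
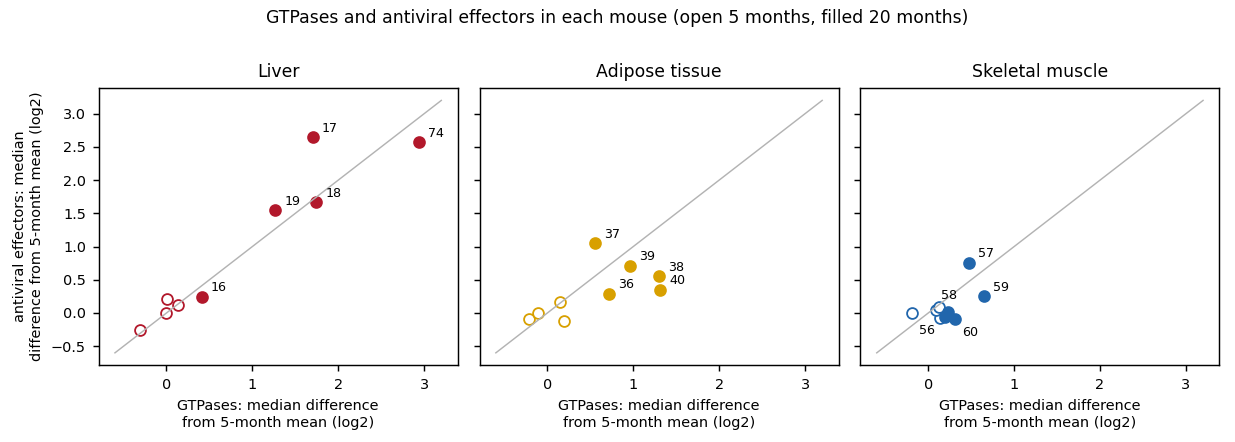
Median difference from the 5-month mean over the GTPases (x axis, log2) and over the antiviral effectors (y axis, log2) in each mouse at 5 months (open) and 20 months (filled, with mouse number), for liver, adipose tissue and skeletal muscle, with the line of equality. At 20 months, mice 17 and 19 in liver, mouse 37 in adipose tissue and mouse 57 in muscle lie above the line, and the other mice lie below it.

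Markers of blood and immune cells were set beside these values. In liver, 5 of 5 B-cell markers rose, with a summed scaled value of 2.18 to 8.24 at 5 months and 9.97 to 19.7 at 20 months, with mouse 18 lowest and mouse 17 highest at 20 months. The 7 T-cell markers summed to 1.78 to 3.84 and 3.75 to 15.6, with mouse 19 lowest and mouse 18 highest, and *Trac* was under 1 in every liver. The 6 markers of NK and cytotoxic cells summed to 2.10 to 2.64 and 3.18 to 7.80, without overlap and with the same mice at the ends, but neither of the 2 tested passed and Ncr1 and Gzma were under 1 in every liver. The 4 neutrophil markers summed to 2.56 to 4.96 and 3.91 to 22.9, with mouse 17 lowest and mouse 18 highest. The 7 macrophage markers summed to 192.2 to 368.0 and 192.3 to 491.8, with mouse 16 lowest and mouse 17 highest and mouse 74 (315.1) inside the 5-month range. The 5 dendritic-cell markers summed to 11.05 to 15.3 and 11.8 to 38.1, with mouse 16 lowest and mouse 74 highest. Of the 7 macrophage markers tested 0 passed, and of 3 dendritic-cell markers tested *Itgax* alone rose. The 4 plasma-cell markers summed to 2.67 to 105.7 (median 46.6) and 4.77 to 28.7 (median 13.99), though *Jchain*, 1 of 2 tested, rose. The 3 markers of plasmacytoid dendritic cells summed to 0.318 to 1.16 and 0.301 to 2.11, with 0 tested. The 5 red-cell markers summed to 663.5 to 841.7 and 952.9 to 1257, and 4 of 5 rose. The part of all these cells in the changes of the interferon-stimulated genes was not tested.

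In adipose tissue, 5 of 5 B-cell markers rose as well, from a sum of 5.39 to 21.7 at 5 months to 18.1 to 189.4 at 20 months, with mouse 37 lowest and mouse 40 highest. The T-cell sum was 7.24 to 15.2 and then 7.01 to 64.8, with mouse 37 lowest and mouse 38 highest. The macrophage sum was 316.6 to 544.2 and then 385.6 to 1229, with mouse 36 lowest and mouse 38 highest, and the dendritic-cell sum 49.1 to 82.8 and then 58.5 to 272.5, with the same mice at the ends. Single markers went both ways. Of 6 macrophage markers tested *Adgre1* rose and *Cd163* fell, and of 5 dendritic-cell markers tested *Itgax* rose and *Zbtb46* fell. The NK and cytotoxic sum was 1.48 to 3.57 and then 3.31 to 18.4, with mouse 37 lowest and mouse 38 highest, and the neutrophil sum 2.25 to 4.07 and then 3.02 to 7.73. Mouse 37 thus had the lowest B-cell, T-cell and NK sums of the older adipose tissues and, at 976.7, the second highest macrophage sum. The plasma-cell sum was 11.9 to 89.4 and then 18.9 to 209.4, and of 3 tested *Mzb1* rose. That of plasmacytoid dendritic cells was 1.49 to 4.25 and then 1.17 to 4.57, and 0 of 2 tested passed. The red-cell sum was 724.2 to 1733 and then 310.9 to 794, and 2 of 5 fell. In muscle the macrophage sum was 71.9 to 144.7 at 5 months and 29.4 to 59.5 at 20 months, 4 of the 5 markers tested fell, and all 7 T-cell and all 6 NK markers were under 1 in every sample. The neutrophil sum was 64.97 in the muscle of mouse 59, against 0.641 to 2.53 in the other older muscles and 2.58 to 29.1 at 5 months. The red-cell sum in muscle was 420.3 to 699.7 at 5 months and 290.8 to 586.7 at 20 months, and 3 of 5 markers fell. The sum of plasmacytoid dendritic cells there was 0.783 to 1.69 and then 0.465 to 1.83. The part of these cells in the results was not tested.

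The size of the age change was then compared between tissues directly, in a fit over all 27 samples. The 20-month tissues share no mouse number, and the labels do not say whether any of them came from the same mouse. Each test rests on the same young and old samples as the age changes above. Liver exceeded adipose tissue for 4 of 44 genes and the reverse held for 0 by limma, edgeR or DESeq2 and for 0 at an unadjusted p under 0.05. Of all genes 8.59% were called higher, 6.97% lower and 15.6% in either direction, so the 4 are near the share of all genes called higher. The 4 were *Oasl2* (difference 1.59, adjusted p = 0.00948, standard error 0.40), *Irf7* (1.69, adjusted p = 0.0122, standard error 0.44), *Xaf1* (1.59, adjusted p = 0.0143, standard error 0.43) and *Zbp1* (1.64, adjusted p = 0.0201, standard error 0.47), each called in all 18 fits that left out a sample. Without the liver of mouse 16 the count was 18. *Usp18* came next with 1.37, adjusted p = 0.0516, standard error 0.48, which did not pass, and passed when the mouse was a block (limma adjusted p = 0.0429).

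Liver exceeded muscle for 22 genes and the reverse held for *Dtx3l* (-0.69, adjusted p = 0.0393, standard error 0.23), where 9.35% and 8.19% of all genes were called in these directions and 17.5% in either. The smallest adjusted p were those of *Zbp1* (2.57, adjusted p = 0.000789, standard error 0.47), *Gbp6* (3.24, adjusted p = 0.00128, standard error 0.63), *Oasl2* (2.003, adjusted p = 0.00173, standard error 0.40), *Xaf1* (2.05, adjusted p = 0.00240, standard error 0.43) and *Irf7* (1.94, adjusted p = 0.00451, standard error 0.44). With the mouse as a block, *Rtp4* and *Tgtp1* passed too (limma adjusted p = 0.0480 and 0.0486). The count was 15 without the muscle of mouse X5S5239 and 34 without the liver of mouse 16.

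Adipose tissue exceeded muscle for 3 of 44 genes and the reverse held for 0 by limma, edgeR or DESeq2, with *Dtx3l* at an unadjusted p under 0.05. Of all genes 8.34% were called higher, 6.34% lower and 14.7% in either direction, so the 3 are near the share of all genes called higher. The 3 were *Irf8* (1.51, adjusted p = 0.00758, standard error 0.36), *Sp100* (0.89, adjusted p = 0.0398, standard error 0.29) and *Gbp6* (1.88, adjusted p = 0.0438, standard error 0.63), of which *Irf8* was called in all 18 fits that left out a sample. With the mouse as a block, *Ubd* and *Irf9* passed too (limma adjusted p = 0.0490 and 0.0494), making 5. The count was 8 without the adipose tissue of mouse 36 and 1 without the adipose tissue of mouse X5F5239, 37, 38, 39 or 40 or the muscle of mouse 58 or 60.

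Before the age comparison, the tissues already differed in these genes. At 5 months, liver had the highest mean of the 3 tissues for 22 of the 44 genes, adipose tissue for 19 and muscle for 3, and muscle had the lowest for 29. At 20 months liver was highest for 33, adipose tissue for 10 and muscle for 1. In the test of the 5-month levels, 15 genes were higher and 10 lower in liver than in adipose tissue, 23 higher and 7 lower in liver than in muscle, and 24 higher and 2 lower in adipose tissue than in muscle. Of all genes, 36.5% were higher and 39.9% lower in liver than in adipose tissue (76.4% in either direction), 36% and 36.8% in liver than in muscle (72.9%), and 41.9% and 30.9% in adipose tissue than in muscle (72.8%), so the members differed between tissues no more often than genes at large.

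**Figure D5:**
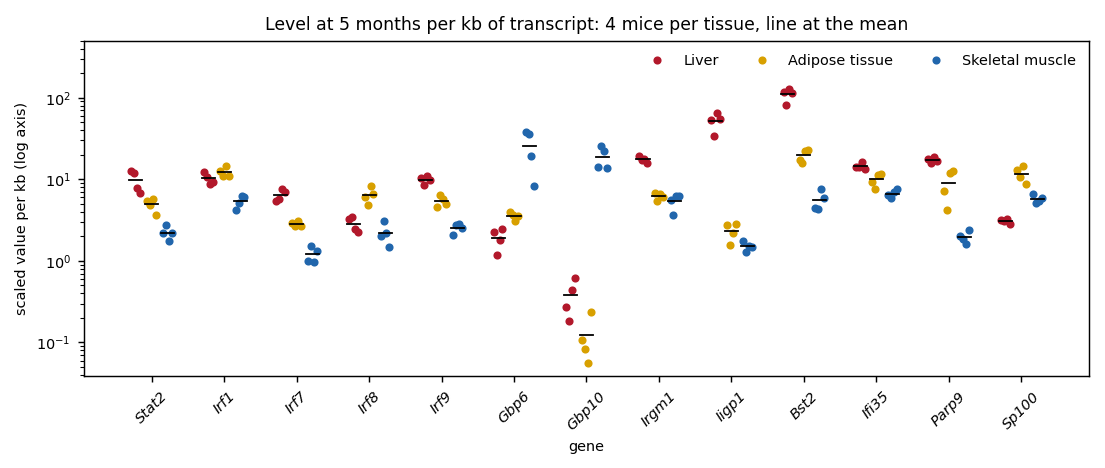
Scaled value per kb of transcript (log axis) at 5 months of the transcription factors and of the 5 genes with the highest mean per kb in each tissue, with 1 point for each of 4 mice and a line at the mean, for liver (red), adipose tissue (yellow) and skeletal muscle (blue). *Bst2* and *Iigp1* are highest in liver, and *Gbp6* and *Gbp10* are highest in muscle.

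Per kb of transcript, the highest levels in young liver were those of *Bst2* (mean 111), *Iigp1* (52.2), *Irgm1* (17.5), *Parp9* (17.2) and *Ifi35* (14.4). In adipose tissue they were *Bst2* (19.7), *Irf1* (12.2), *Sp100* (11.8), *Ifi35* (9.98) and *Parp9* (8.99). In muscle they were *Gbp6* (25.6), *Gbp10* (18.98), *Ifi35* (6.68), *Sp100* (5.76) and *Bst2* (5.56). *Bst2* and *Ifi35* were thus among the 5 highest in all 3 tissues. The scaled value of *Iigp1* at 5 months was 163 ± 41.4 (SD, n = 4) in liver, 7.32 ± 1.80 in adipose tissue and 4.72 ± 0.587 in muscle, a log2 difference of 4.29 between liver and adipose tissue (limma adjusted p = 1.5e-14) and of 0.52 between adipose tissue and muscle (limma adjusted p = 0.0526, and 0.0379 with the mouse as a block). *Gbp10* was 67.0 ± 20.8 in muscle, 1.33 ± 0.669 in liver and 0.430 ± 0.286 in adipose tissue (SD, n = 4 each), with log2 differences of -4.86 for liver minus muscle and 0.68 for liver minus adipose tissue (limma adjusted p = 1.14e-08 and 0.261). *Gbp6* followed the same order between muscle and the other tissues, and the sequence shared by *Gbp6*, *Gbp10* and *Gm43302* applies to these levels too.

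The genes with and without the response element core in the promoter window were set side by side for the age change. In liver 12 of 18 genes with the response element core rose (median log2 change 1.24) and 9 of 13 without it (1.56). In adipose tissue the counts were 11 of 18 (0.81) and 7 of 13 (0.56), and in muscle 3 of 16 (0.42) and 1 of 11 (-0.10). No test was made of this split.

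The interferons themselves were close to or below detection. Of 10 ligand genes, *Ifna1*, *Ifna2*, *Ifna4*, *Ifna5*, *Ifnl2* and *Ifnl3* had 0 reads in all 27 samples, where 3 reads, the most that a count of 0 allows (counting error only), correspond to a scaled value of 0.0703 to 0.242. *Ifng*, made by T and NK cells, had 2 reads in the 4 young livers together and 13 in the 5 older livers, where each had at least 1. In adipose tissue it had 7 and 41 reads, of which 21 were in a single older mouse, and in muscle 0 and 0. *Ifnb1* had 2 reads, both in a young muscle, and *Ifne* and *Ifnk* had at most 6 reads in any group. None of these passed the filter, and counts this low do not give a change. At this depth the ligand reads do not tell type I from type II interferon.

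Among the receptor chains and their kinases, *Tyk2* rose in adipose tissue, from a mean of 22.5 ± 4.57 (n = 4, SD) at 5 months to 35.1 ± 5.91 (n = 5, SD), with a change of 0.62, adjusted p = 0.0336, standard error 0.16. In liver *Jak1* fell, from a mean of 167 ± 28.5 (n = 4, SD) at 5 months to 127 ± 7.47 (n = 5, SD), with a change of -0.39, adjusted p = 0.0407, standard error 0.12, and the other kinases and the receptor chains did not pass. In muscle *Ifngr1* (log2 change -0.57), *Ifnar2* (-0.54), *Jak1* (-0.78) and *Jak2* (-0.32) fell. The receptor chains *Ifngr2* and *Ifnar1* passed in no tissue, and *Ifngr1* and *Ifnar2* passed in muscle alone.

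Among 8 brakes on the pathway, *Trex1* and *Samhd1*, which degrade stray DNA and its building blocks, rose in liver (log2 changes 0.92 and 0.98) and in adipose tissue (0.74 and 1.05). *Socs1*, the feedback inhibitor of the receptor kinases, was 0.323 ± 0.209 (SD, n = 4) in young and 1.08 ± 0.318 (SD, n = 5) in old liver, and as it was under 1 in every young liver it passed the filter through the older livers alone and had to differ to be tested. *Ptpn6*, a phosphatase of blood cells, rose in adipose tissue (1.76). In muscle *Socs3* fell by 1.97 on the log2 scale. Of the sensors and adaptors upstream of interferon, 0 of 10 passed in liver by limma, where 5 had an unadjusted p under 0.05, and edgeR called 0 and DESeq2 called 1, *Irf5*. Of all genes tested in liver, 4697 of 12654 had an unadjusted p under 0.05, in either direction. *Irf5* rose in adipose tissue (1 of 11, log2 change 1.26), and *Tmem173* (STING), *Tbk1*, *Myd88* and *Ticam1* fell in muscle (4 of 9, -0.99, -0.33, -0.57 and -0.56). Of all genes, 9.75% were higher in adipose tissue and 10.1% lower in muscle, so the 1 of 11 is near the share of all genes. Of the calls given here for receptors, kinases, brakes, sensors and adaptors, those of *Ifnar2*, *Jak1*, *Myd88* and *Ticam1* in muscle, *Trex1* and *Samhd1* in liver and *Ptpn6* in adipose tissue held in all 9 fits that left out a mouse. The fall of *Ifngr1* in muscle was lost without mouse 60, and that of *Socs3* without mouse X5S4299, 57, 58 or 60. Each of the other calls, *Socs1* left aside, was lost without any 1 of at least 5 of the 9 mice.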

How the data were processed

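Liver, omental adipose tissue and skeletal muscle of *Mlx*KO mice were compared at 5 months (4 mice) and 20 months (5 mice), 27 samples in 6 groups taken from the labels. The codes of the older samples carry the number 18, and the labelled age of 20 months was used. RNA was extracted with RNeasy kits, made into directional poly-T selected libraries and sequenced on a NovaSeq. Reads were assigned to genes by the authors in CLC Genomics Workbench, and what they deposited is a scaled signal headed CPM. The columns sum to 559419 to 1395315, so they are not CPM as the tests had assumed, and the tests were kept. The submitters' processing notes name GRCm38.p6 and mm10, and the annotation and strand setting of the counting are not given in the sources used here. In every sample 100% of values came out whole when divided by what a single read is worth (0.0234 to 0.0806, tolerance 0.05 reads), which recovered the reads, 14384695 to 25673919 per sample. Coordinates came from GENCODE annotation of GRCm38.p6, joined by symbol and gene ID, and promoters from RefSeq. No replicates were pooled, and 0 of 48 pairs of samples of the same group held identical values.

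Values were tested as log2(value + 1) by limma 3.58.1 in R 4.3.3 (variance trend, two-sided, Benjamini-Hochberg adjustment over all genes tested, threshold 0.05) on genes that reached a value of 1 in at least 4 samples. Every adjusted p is from limma unless another tool is named. Age was tested within each tissue, and the difference of the age change and the levels at 5 months between tissues in a fit over 27 samples. The genes and lists were chosen with earlier results of these data known. Named by rule were the transcription factors, up to 10 members called in a tissue at a mean of at least 1, taken by the size of the change in each direction, up to 5 with the smallest adjusted p per pair of tissues and the 5 with the highest value per kb in each tissue at 5 months. Other members are named to account for their group. A result on 1 pathway gene is not reported here. The 5-month tissues with the same number were taken to come from the same mouse, as the codes show, although deviations from the group means correlated over 0.1 in only 7 of 12 such pairs (r -0.0169 to 0.294, consensus 0.101).

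Other settings tried were pseudocounts of 0.1 or 0.5, testing every gene, requiring a mean of at least 5, median-of-ratios scaling, edgeR 4.0.16 and DESeq2 1.42.0 on recovered reads, all 27 samples in a single fit, the mouse as a block, and each sample left out in turn. Of 12654 genes tested in liver edgeR called 2578, of 14005 in adipose tissue 2692 and of 12720 in muscle 2453. On simulated reads with about 200 changed genes, limma recovered 163 of the 193 tested in liver, in adipose tissue 129 of 195 and in muscle 177 of 195, with 7, 8 and 8 false calls among 12521, 13801 and 12596 genes. For the difference of the age change it recovered 98 of 195 for liver against adipose tissue and 102 of 195 for liver against muscle. No mouse was made to stand apart in these reads, so they do not show how far the real calls rest on single mice.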

Additional observations from a re-analysis of the deposited data

Results flagged for a closer look

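A single mouse stood apart from the rest of its group for 5 members, out of 74 groups of named genes examined with Dixon's criterion, which chance passes in about 1 of 20 groups. In muscle at 20 months, *Irf1* was 14.3 in mouse 59 and 8.77 to 10.4 in the others, and *Irf7* was 9.04 in mouse 57 and 2.80 to 4.48 in the others. In liver at 20 months, *Stat2* was 29.9 in mouse 16 and 60.9 to 67.3 in the others, and *Ubd* was 460.2 in mouse 74 and 2.44 to 78.3 in the others. *Oas1a* in adipose tissue at 5 months was 4.25 in mouse X5F5238 and 2.78 to 2.92 in the others. Mouse 16 was the lowest older liver for 43 of 44 members, and mouse 74 had the lowest hepatocyte marker sum (39318). The part of that sum in the *Ubd* value was not tested, nor that of the neutrophil marker sum of 64.97 in the muscle of mouse 59 (0.641 to 2.53 in the other older muscles) in the *Irf1* value.

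The change with age differed between tissues, by a test of the difference itself, for 12 combinations of a gene and a pair of tissues. The genes were those named for the smallest adjusted p in this same test, up to 5 per pair, so 12 is not a count of all calls. Of 44 members, liver exceeded adipose tissue for 4 and muscle for 22, against 8.59% and 9.35% of all genes. Adipose tissue exceeded muscle for 3, against 8.34% of all genes. The counts of 4 and 3 are near the shares of all genes. Between liver and adipose tissue the differences in log2 change were 1.59 for *Oasl2*, 1.69 for *Irf7*, 1.59 for *Xaf1* and 1.64 for *Zbp1* (limma adjusted p = 0.00948, 0.0122, 0.0143 and 0.0201). Between liver and muscle they were 2.57 for *Zbp1*, 3.24 for *Gbp6*, 2.003 for *Oasl2*, 2.05 for *Xaf1* and 1.94 for *Irf7* (limma adjusted p = 0.000789, 0.00128, 0.00173, 0.0024 and 0.00451). Between adipose tissue and muscle they were 1.51 for *Irf8*, 0.89 for *Sp100* and 1.88 for *Gbp6* (limma adjusted p = 0.00758, 0.0398 and 0.0438). The calls of *Sp100* and *Gbp6* between adipose tissue and muscle held in 7 and 3 of the 18 fits that left out a sample, and the other 10 calls held in all 18.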

How the results depend on the processing

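No alternative reversed the direction of a named gene. Among the named genes' values, 383 of 412 from alternatives that kept all samples stayed on their side of the threshold, 17 lost and 12 gained the call, and of 603 from fits that left out a sample 513 stayed, 80 lost and 10 gained it. Counts of members called moved by over 1.5 times in 9 of 72 cases with all samples. In muscle the 4 became 2 without the filter, 2 with all 27 samples in a single fit and 7 with DESeq2. For liver against adipose tissue the 4 became 7 with edgeR and 12 with DESeq2, and for liver against muscle the 23 became 13 without the filter. For adipose tissue against muscle the 3 became 1 with a pseudocount of 0.1, 1 without the filter and 5 with the replicate block. By role, DESeq2 called 3 ubiquitin-related genes and 4 sensors in liver where limma called 1 and 2. Among all genes, the 2674 called in adipose tissue became 1525 without the filter, 4348 with DESeq2 and 5270 with all 27 samples in a single fit, and the 2451 in muscle became 1507 without the filter. Leaving out each sample in turn gave 10 to 42 members in liver, 10 to 29 in adipose tissue, 1 to 6 in muscle, 4 to 18 for liver against adipose tissue, 15 to 34 for liver against muscle and 1 to 8 for adipose tissue against muscle. The cause of these shifts was not tested. With the replicate block, *Gbp3* (liver against adipose tissue) and *Gbp2* and *Ifit1* (liver against muscle) were added at 5 months, and beside these and the calls given with the results no call changed. No paired analysis was possible for age within a tissue because no mouse number is shared between the ages. Genes with few reads, such as the ligands in every tissue and *Isg15*, *Zbp1* and *Ubd* in muscle, could not be compared at this depth.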

Other observations

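Beyond the members, 33 other interferon-induced genes were in the table. In liver 16 of 30 tested rose and 0 fell by limma, edgeR or DESeq2 (median log2 change 0.96), against 10% of all genes higher and 9.79% lower. In adipose tissue 14 of 30 rose and 1 fell (0.68), against 9.75% and 9.35%. In muscle 4 of 25 rose and 3 fell, against 9.13% and 10.1% of all genes. The counts there were 3 and 3 with edgeR, 4 and 4 with DESeq2 and 4 and 2 with median-of-ratios scaling. Of those that rose, *Oas1g* in liver and *Oas3* in adipose tissue were under 1 in every young sample and had to differ to be tested. *Ifitm3*, which blocks the entry of enveloped viruses, rose in liver from a mean of 129 ± 29.1 (n = 4, SD) to 352 ± 125 (n = 5, SD), a log2 change of 1.38 (limma adjusted p = 0.0135). *Ifi27l2a* and *Ifi27*, small mitochondrial membrane proteins, rose in liver by 2.03 and 1.92 (limma adjusted p = 0.0105 and 0.00737), and *Ifi27* also rose in adipose tissue (1.08) and in muscle (0.50 on the log2 scale). *Ciita*, the switch of the MHC class II genes, rose by 1.37 in liver and 1.103 in adipose tissue. *Cd274* (PD-L1), which restrains T cells, rose by 1.01 in liver. In muscle *Ifit3b*, *Tgtp2*, *Eif2ak2* and *Ifi27* rose by 0.79, 0.64, 0.60 and 0.50, and *Ifi204*, *Tor3a* and *Trim25* fell.

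In the promoters of *Igtp*, *Irgm2* and *Tgtp1* the gamma-activated site core was followed after 2 bases by the response element core, an arrangement of 21 bases that was noticed after the sequences were seen. It occurred in 5 of the 27025 genes with a promoter window (0.0185%), of which these members were 3. The 61-base windows of *Igtp* and *Irgm2*, which lie next to each other on chromosome 11, had 59 identical bases, and that of *Tgtp1* had 39 and 41 in common with them, so the promoters are not independent examples. *Igtp*, *Irgm2* and *Tgtp1* all rose in liver, but so did *Irgm1* and *Ifi47*, whose windows lack the arrangement. In adipose tissue *Irgm2* did not pass, and in muscle *Igtp* alone of the 3 did.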
